A study of Caenorhabditis elegans with 8 samples.

Results

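The numbered cuticle collagens of Caenorhabditis elegans, written col-N, are a large family of small genes for the structural proteins of the worm's outer coat. A row of the count table was taken as a member when its sequence name belonged to a protein-coding gene with a col-number symbol in the Ensembl annotation of the genome assembly WBcel235. The genes col-80, col-146, col-147, col-149 and col-150 were left out, which gave 151 members among 45461 rows. All members matched a single annotated gene, with between 465 and 2960 exon bases and a median of 1020. The family does not include the cuticle collagens named after a mutant body shape (dpy, sqt, rol, lon and bli genes), which serve below as a comparison.

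RNA was taken from whole larvae at the second larval stage (L2), in an oxidized and a reduced group of 4 libraries each. All 8 libraries came from strain N2 carrying the transgene jrIs2[Prpl-17::Grx1-roGFP2], in which the promoter of rpl-17, a ribosomal protein gene, drives a fluorescent sensor of the glutathione redox state. Worms hatched from synchronized eggs and were raised at 20 °C on E. coli OP50, with about 10000 pooled worms per replicate, and the sources used here do not say how they were divided into the groups. Replicates are numbered 1, 2, 3 and 5, and titles give the date June28 for replicates 1 and 2, July7 for 3 and August6 for 5. Some titles also hold R4 or R5, of unstated meaning: in replicates 3 and 5 the oxidized library reads R5 and the reduced one R4, so there this mark and the group cannot be told apart. The labels of replicate 5 conflict, since its source name has the states the other way round from the remaining labels, which were followed.

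Cuticle collagens are built mainly of repeated Gly-X-Y triplets, in which many prolines are hydroxylated. The hypodermis, the epithelium under the coat, secretes a new cuticle before each moult, and many collagen genes are transcribed in waves that return with each moulting cycle. Some members are known for a stage, such as col-19 in the adult and col-2 in the dauer larva, an arrested and stress-resistant stage. Most members have no described role of their own beyond the family's.

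Library totals ran from 635990 counts in oxidized replicate 3 to 1089259 in oxidized replicate 1. Levels are given as CPM, counts scaled to a common library size after TMM correction, and levels of different genes are compared as CPM per kilobase of exon, while shares are of counts. A level of 3 counts, taken as the floor, was 2.80 to 4.84 CPM, which covers counting error only. Reduced replicate 1 stood apart in the family's most abundant genes, oxidized replicate 1 and reduced replicate 5 lay at opposite ends of its main pattern, and values that moved by more than 1.5 times without one of them are given where they occur. Since whole worms were used, fewer hypodermal cells and less RNA per cell cannot be told apart.

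The family took a large part of each library. Its rows made up 0.332% of the table and held 805318 of 6407344 counts, or 12.6%. By replicate (1, 2, 3 and 5, an order kept throughout), the family's share was 13.5%, 9.88%, 11.1% and 14.2% of counts in the oxidized libraries, against 17.1%, 13.2%, 9.90% and 10.7% in the reduced libraries. The groups overlapped, and the highest share was in reduced replicate 1. The share averaged 12.2% ± 2.03 in oxidized and 12.7% ± 3.22 in reduced libraries (SD, n = 4 each), a difference of −0.553 percentage points (exact two-sided permutation p = 0.857, the same after Benjamini-Hochberg adjustment over 3 family measures). With 70 relabellings of the libraries the smallest p such a test can give is 0.0286. Oxidized minus reduced was −3.54 and −3.36 percentage points in both June28 pairs, 1.21 in the July7 pair and 3.48 in the August6 pair, so the sign in the June28 pairs differed from that in the others. Without reduced replicate 1 the difference was 0.891, and without oxidized replicate 2 it was 0.213. It was −2.29 with the labels of replicate 5 exchanged and −1.90 without its libraries.

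**Figure D1:**
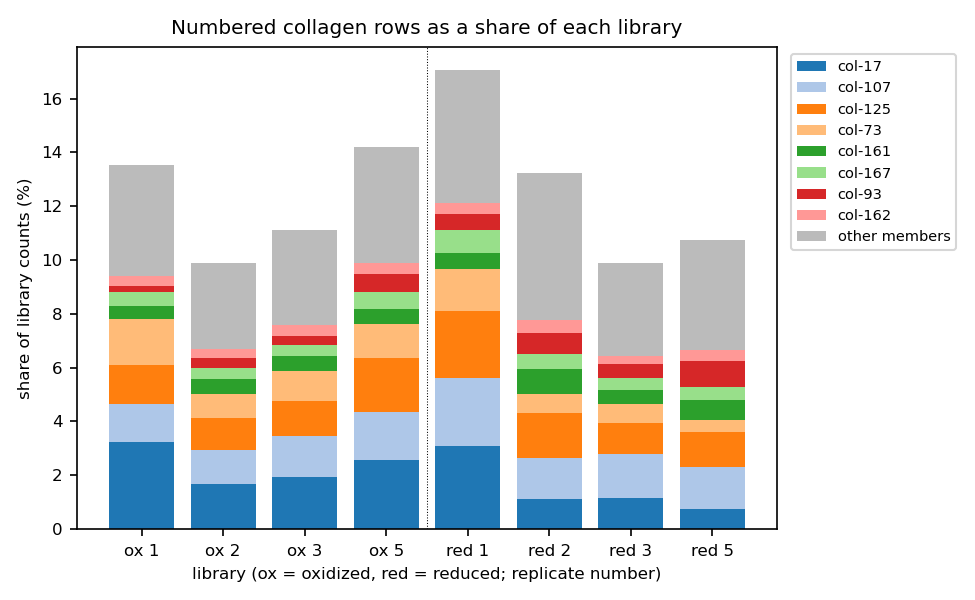
Share of all counts held by the col-N family (y axis, percent of the library's counts) in each oxidized and reduced library (x axis, by replicate number), with the 8 members highest per kilobase in colour and the other members in grey. The total lay between 9.88% and 17.1%, was lower in the oxidized than in the reduced library of replicates 1 and 2, and was higher in that of replicates 3 and 5.

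Most of these counts came from a few members. The 3 most abundant members held 41.4% of the family's counts and the 12 members highest per kilobase held 76.8%, while 24 members were needed to reach 90%. At the other end, 28 members had no count in any library, 61 were seen in some libraries and 62 in all 8. The median member had 31 counts over all libraries. Of the 151 members, 65 passed the filter on low counts used for testing, and these held 99.9% of the family's counts. The members at the edge of that filter were col-101 with 64 counts and col-142 with 80 inside it, and col-122 with 70 and col-174 with 84 outside it.

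The number of members with at least 1 count was 94, 82, 86 and 86 in the oxidized libraries, against 86, 91, 80 and 81 in the reduced libraries. The means were 87 ± 5.03 and 84.5 ± 5.07 members (SD, n = 4 each; exact permutation p = 0.514, adjusted 0.771). The 10 most abundant members of each library held between 73.5% and 74.7% of family counts in the oxidized libraries, against between 64.9% (replicate 2) and 76.9% (replicate 1) in the reduced libraries. The oxidized libraries were close to each other in this measure and the reduced ones spread around them. The means were 74.1% ± 0.678 in oxidized and 70.9% ± 4.93 in reduced libraries (SD, n = 4 each), a difference of 3.26 percentage points (exact permutation p = 0.286, adjusted 0.771). Without reduced replicate 1 it was 5.28 with p = 0.0286 in the exact permutation test, the smallest value that test gives there.

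The leading members ranked among the most abundant protein-coding rows of the worm in the deposited counts, whose strand setting is not given. All of the 12 highest members lay within the top 50 of 19268 coding rows in CPM per kilobase, and 17 members lay within the top 100. First came col-17, with a mean of 18507 CPM per kilobase and rank 4. Next were col-107 with 18226 (rank 5), col-125 with 17309 (rank 7) and col-73 with 11167 (rank 12). The other members of the top 12 were col-161 with 6737, col-167 with 6172, col-93 with 5748, col-162 with 4326, col-180 with 4071, col-166 with 3705, col-168 with 3513 and col-39 with 2654 CPM per kilobase. Of the 12 highest members of each library, 10 were shared by all 8 libraries, and 15 genes appeared in at least 1 of the lists. The order of members was similar from library to library: Spearman correlations across the 65 tested members ran from 0.846 to 0.981, and those across all 2315 tested rows from 0.695 to 0.839. These are correlations across genes, which are not independent replicates. The tested rows at large were not matched to the members for level, which ran from 9.31 to 20246 mean CPM among the tested members. The part of level in this difference was not tested.

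**Figure D2:**
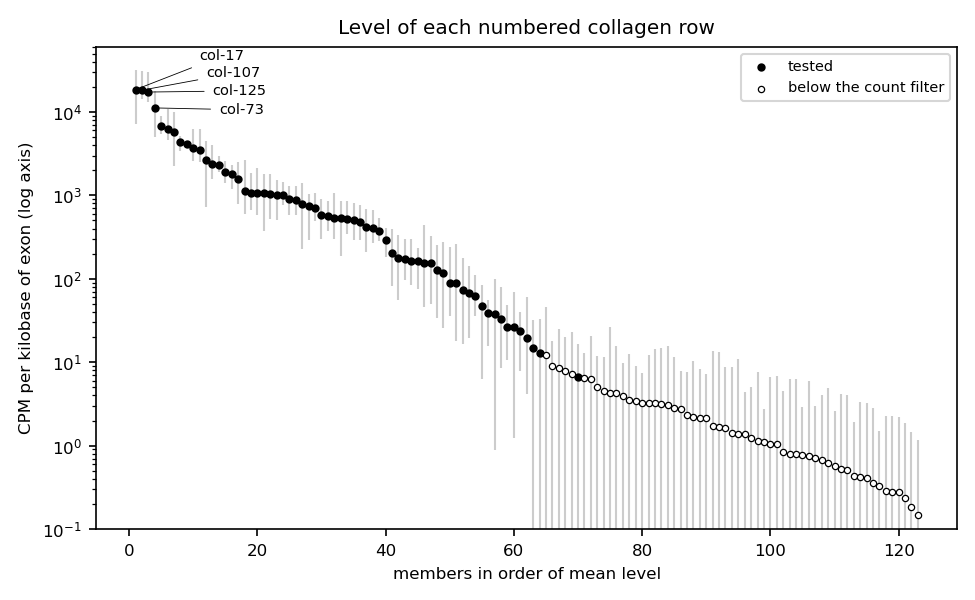
Mean CPM per kilobase of exon over the 8 libraries (y axis, log scale) of the 123 members with at least 1 count, in order of this level (x axis), with tested members filled, untested ones open, and grey bars from the lowest to the highest library. The 4 labelled members lie at 11167 CPM per kilobase or more, the 28 members with no count are not drawn, and bars that reach 0 stop at the lower edge.

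Rank 1 within the family changed hands between libraries. Per kilobase col-17 was the highest member in all 4 oxidized libraries and in reduced replicate 1, col-107 in reduced replicates 3 and 5, and col-125 in reduced replicate 2. The gene col-17, at chrII:4866436-4867576 on the minus strand with 2 exons, had 32971, 18178, 19886 and 25617 CPM in the oxidized libraries, against 35050, 10205, 12235 and 7829 CPM in the reduced libraries. The groups overlapped because of reduced replicate 1, whose value was the highest of all 8. The log2 fold change, here always oxidized over reduced, was 0.57 (SE 0.38, edgeR quasi-likelihood adjusted p = 0.9986). Without reduced replicate 1 it was 1.27 with an edgeR adjusted p of 0.0274, the single member that passed in any of the 17 alternative fits (background there 0.691%). With the labels of replicate 5 exchanged its log2 fold change was −0.08, and without reduced replicate 5 it was 0.33.

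The gene col-73 lies close to col-17 on chromosome II, at chrII:4872098-4873129, with col-20, which held 8 counts, between them. It had 17218, 9834, 11204 and 12727 CPM in the oxidized libraries, against 17697, 6389, 7595 and 4886 CPM in the reduced libraries. Reduced replicate 1 was again the highest and reduced replicate 5 the lowest. The ratio of col-17 to col-73 in CPM per kilobase was 1.72, 1.66, 1.59 and 1.80 in the oxidized libraries, against 1.77, 1.43, 1.44 and 1.44 in the reduced libraries. These genes thus kept a narrow ratio while each varied more than 3-fold. Their summed share of family counts was 36.5%, 26.4%, 27.3% and 27.1% in the oxidized libraries, against 27.3%, 13.7%, 18.8% and 11.5% in the reduced libraries. In each of the 4 pairs the oxidized library had the higher share, a quantity chosen after the values were seen and given with no test.

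The members that follow col-17 in level, col-107 and col-125 on chromosome IV, varied less. The level of col-107 was 14219, 13428, 15663 and 17704 CPM in the oxidized libraries, against 28815, 13849, 17324 and 15766 CPM in the reduced libraries. That of col-125 was 14830, 12680, 13405 and 19870 CPM in the oxidized libraries, against 28032, 15623, 12469 and 13390 CPM in the reduced libraries. Reduced replicate 1 was the highest for both, and the remaining values of the groups overlapped. The log2 fold changes were −0.31 (SE 0.30) for col-107 and −0.19 (SE 0.32) for col-125, with an edgeR adjusted p of 0.9986 for each. Without reduced replicate 1 the log2 fold change of col-107 was −0.03. The mean CPM of col-125 was then higher in oxidized than in reduced libraries, the reverse of the order with that library kept.

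The abundant members col-93 and col-39 had lower values in oxidized than in reduced libraries within each pair, where col-17 was higher in 3 of 4 pairs. The level of col-93 was 2250, 4005, 3690 and 6670 CPM in the oxidized libraries, against 6760, 7003, 5670 and 9984 CPM in the reduced libraries. The groups overlapped, since oxidized replicate 5 lay above reduced replicate 3. Its log2 fold change was −0.83 (SE 0.33, edgeR adjusted p = 0.773). The level of col-39 was 755, 1906, 1534 and 3691 CPM in the oxidized libraries, against 3224, 3455, 2757 and 4700 CPM in the reduced libraries. It showed the same order of groups within each pair, and its log2 fold change was −0.84 (SE 0.38, edgeR adjusted p = 0.916). In CPM per kilobase, col-17 stood at 13.4, 4.15, 4.93 and 3.51 times col-93 in the oxidized libraries, against 4.74, 1.33, 1.97 and 0.717 times in the reduced libraries. The least variable tested member was col-180, with a standard deviation of 0.11 in log2 CPM over the 8 libraries: 3598, 3416, 3396 and 3463 CPM in the oxidized libraries, against 4015, 4096, 3518 and 3908 CPM in the reduced libraries. The groups of col-180 overlapped slightly, and its log2 fold change was −0.16 (SE 0.28). The most variable tested member was col-96, with a standard deviation of 1.67 in log2 CPM and a mean of 16.8 ± 12.1 CPM in oxidized and 62.7 ± 43.8 CPM in reduced libraries (SD, n = 4 each). Over the 65 tested members the median standard deviation was 0.60 in log2 CPM, against 0.79 over all tested rows, which were not matched for level.

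**Figure D3:**
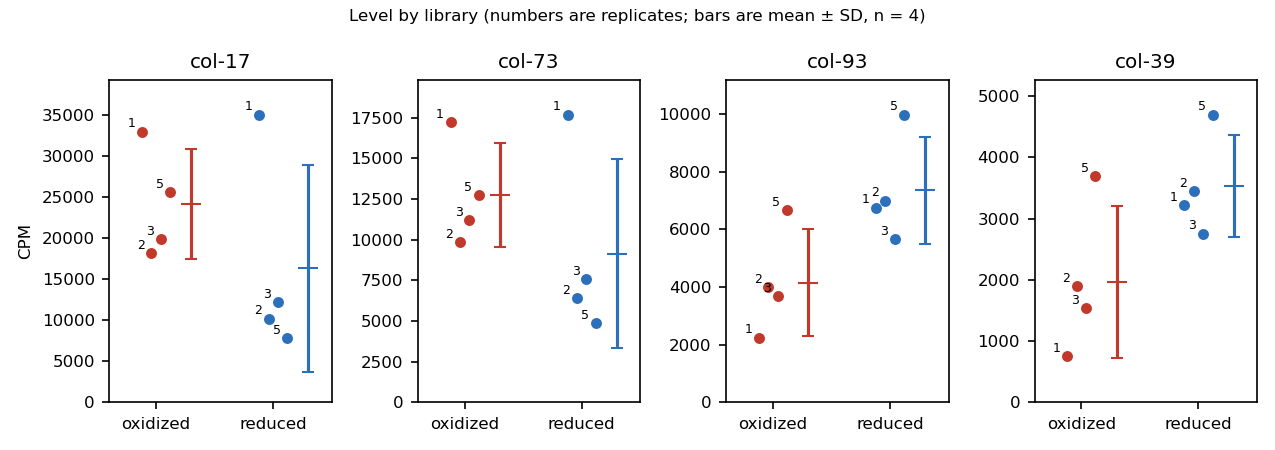
CPM (y axes, linear from 0) of col-17, col-73, col-93 and col-39 in each oxidized and reduced library, with replicate numbers and bars for the mean ± SD (n = 4). Reduced replicate 1 reached 35050 CPM for col-17, and the oxidized libraries of col-93 and col-39 lay below the reduced library of the same number.

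Members known for the adult or dauer stage were almost absent, which does not tell L2 from other larval stages. The adult collagens col-7, col-19 and col-62 had 8, 0 and 3 counts in all libraries together. The dauer collagens col-2, col-40 and col-183 had 3, 3 and 0 counts. The yolk protein genes vit-1 to vit-6, markers of the adult, had 2 counts in all, with 5 of 6 at 0. The collagens listed as larval, col-12, col-13 and col-17, held 5635, 3534 and 127374 counts, so most of their sum of 136543 came from col-17. The member col-99, a transmembrane collagen rather than a cuticle protein, had 20 counts.

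No member differed between the groups at an adjusted p under 0.05. Of the 65 tested members, 0 were called higher and 0 lower by edgeR's quasi-likelihood test with Benjamini-Hochberg adjustment over all 2315 tested rows, where the background was 0.216% (5 rows, all higher). DESeq2 and limma voom also called 0 members, with backgrounds of 0.389% and 0.13%. When replicates were blocked in the edgeR fit, 0 members passed against 0.648% of all tested rows, and the smallest adjusted p among members was 0.227, against 0.516 without the block. At an unadjusted p under 0.05 there were 14 members by edgeR (21.5% against a background of 5.27%), 13 by DESeq2 (background 4.71%) and 16 by limma voom (background 5.01%). In the edgeR fit 13 of the 14 were lower in oxidized libraries, 20.0% of the tested members against 2.29% of all tested rows, and 1 was higher, 1.54% against 2.98%. This lower count depended on single libraries: it was 6 without oxidized replicate 1 or 3, 8 without oxidized replicate 2 and 15 without oxidized replicate 5. Leaving out reduced replicate 2 or 5 gave 7, and leaving out reduced replicate 1 gave 17. In the fits with 1 library left out, between 1.68% and 3.46% of all tested rows were lower at that p. With the labels of replicate 5 exchanged the count was 2 members, 3.08% against 2.12% of all tested rows.

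The members' fold changes leaned to negative values, with no test of the lean itself. The median log2 fold change was −0.31 over the tested members and −0.05 over all tested rows, and 41 members (63.1%, against 54.2% of all tested rows) had a negative value and 24 a positive one. Without reduced replicate 1 the median was −0.03. The counts of members lower or higher in all 4 pairs were 16 and 4, against a background of 5.36% and 7.21% of all tested rows. Among the tested members, 3 had all oxidized libraries below all reduced ones (background 0.994%), namely col-130, col-159 and col-12, and 0 had the reverse (background 2.03%). The level of col-130 was 636, 703, 768 and 849 CPM in the oxidized libraries, against 1799, 1427, 1015 and 1059 CPM in the reduced libraries. Its log2 fold change was −0.84 (SE 0.31, edgeR adjusted p = 0.68).

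The smallest p-values belonged to members of moderate or low level. The level of col-160 was 414, 815, 669 and 1187 CPM in the oxidized libraries, against 1635, 1992, 1105 and 1643 CPM in the reduced libraries. Its groups overlapped by oxidized replicate 5, and its log2 fold change was −1.05 (SE 0.34, edgeR adjusted p = 0.516). The next in this direction were col-96 at −2.05 (SE 0.73), col-130, and col-137 at −1.29 (SE 0.48). In the other direction came col-173, with 290, 84.6, 99.98 and 72.0 CPM in the oxidized libraries, against 118, 78.3, 32.8 and 19.9 CPM in the reduced libraries. Its groups overlapped, although each oxidized library lay above the reduced one of its number, and its log2 fold change was 1.18 (SE 0.54, edgeR adjusted p = 0.916). It was followed by col-47 at 0.71 (SE 0.36), col-124 at 0.75 (SE 0.39) and col-90 at 0.71 (SE 0.38). None of the 17 alternative fits changed the sign of these 8 fold changes or brought any past the threshold, but some sizes rested on few libraries. Without oxidized replicate 1, col-173 was at 0.45 and col-90 at 0.20 on the log2 scale. With the labels of replicate 5 exchanged, col-96 was at −0.36, col-137 at −0.34, col-173 at 0.75 and col-47 at 0.44.

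**Figure D4:**
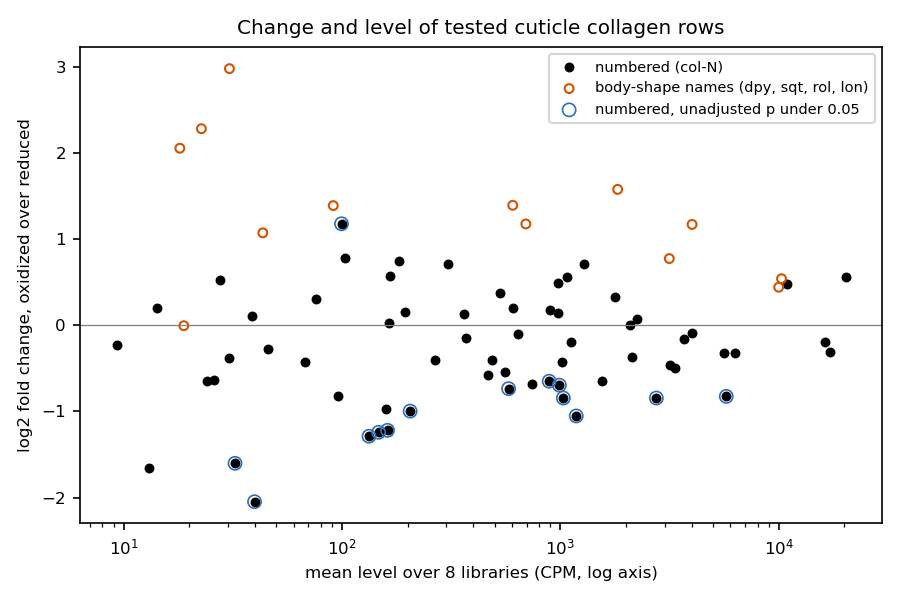
Log2 fold change, oxidized over reduced (y axis), of the tested members against their mean CPM (x axis, log scale), with the 13 tested body shape collagens as open circles. No member passed the adjusted p threshold, the 14 with an unadjusted p under 0.05 are ringed, and 13 of those lie below 0.

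Members varied across the 8 libraries along a main pattern, some in one direction and others in the opposite one. The first principal component of log2 CPM held 47.9% of the variance of the 65 tested members and the next held 18.6%, against 25.9% and 22.6% over all tested rows. Library scores were 0.603, 0.0416, 0.201 and −0.105 in the oxidized libraries, against 0.266, −0.142, −0.188 and −0.676 in the reduced libraries. In each of the 4 pairs the oxidized library had the higher score, but the groups overlapped, and the range within each group exceeded the difference of 0.37 between the means. Leaving out 1 library at a time put the component between 35.2% (without reduced replicate 5) and 54.3% (without reduced replicate 2). The members with the most positive loadings were col-173, col-58, col-111, col-41, col-89 and col-17, and those with the most negative were col-96, col-142, col-103, col-42 and col-98. Rows were centred but not scaled, so members with a large spread weighed most. Of those named, col-58, col-142 and col-96 had only 172, 80 and 255 counts over all libraries, against 127374 for col-17. The abundant members col-107 and col-162 had loadings of 0.11 and −0.04, against −4.11 for col-96. In all, 36 members had positive and 29 negative loadings, so libraries with more col-17 had less col-96 and col-103.

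**Figure D5:**
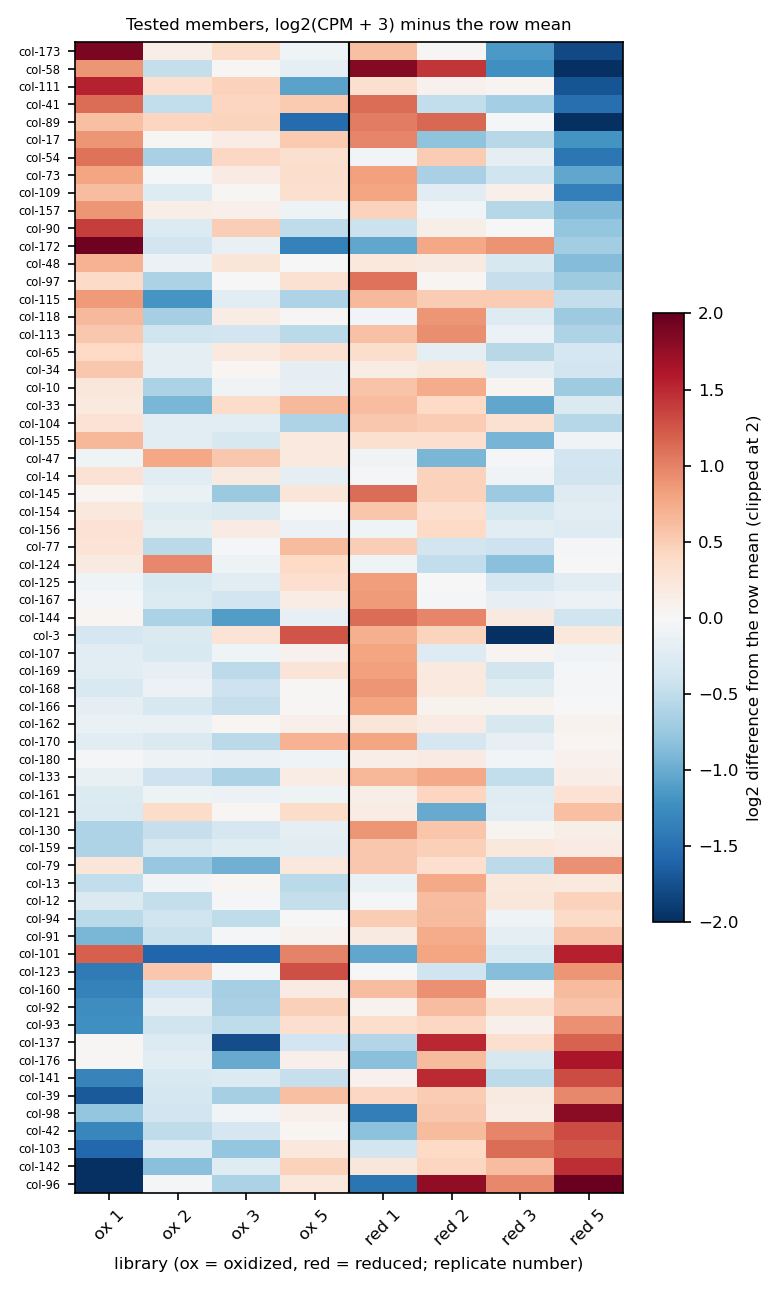
Log2(CPM + 3) of the 65 tested members (one per line, ordered by loading on the first component) relative to each member's mean over the 8 libraries (columns), with colours limited to differences of 2. Members at the ends of the order change in opposite directions between oxidized replicate 1 and reduced replicate 5.

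Hypodermis markers were low, and the tested ones differed in the sign of their correlation with the component. The 8 listed genes summed to 83.1 to 199 CPM in the oxidized libraries, against 22.8 to 100 CPM in the reduced libraries. Of them 4 were tested, 0 were called, and nhr-73 and che-14 were at 0. Across the 8 libraries dpy-7, a cuticle collagen, and qua-1 correlated with the component at 0.687 and 0.708, while bli-4, a collagen protease, and wrt-2 were at −0.281 and −0.133. These rows held only 160, 263, 91 and 101 counts over all libraries, with lowest levels of 0 to 3.23 CPM. At such counts the correlations cannot show whether the markers moved together. Body muscle markers, all 7 of them tested, summed to 639 to 1359 CPM in the oxidized libraries, against 636 to 2191 CPM in the reduced libraries. Intestine markers summed to 211 to 474 CPM in the oxidized libraries, against 112 to 651 CPM in the reduced libraries. Neuron markers summed to 61.2 to 162 CPM in the oxidized libraries, against 54.6 to 148 CPM in the reduced libraries. Pharynx markers summed to 161 to 327 CPM in the oxidized libraries, against 140 to 665 CPM in the reduced libraries, and germ line markers to 6.00 to 40.2 CPM, against 31.6 to 75.1 CPM. The part of these markers in the family's pattern was not tested.

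The cuticle collagens with body shape names lay at the positive end of the component. Of 13 tested genes of this kind, 8 correlated with it above 0.9, against 13 of the 2250 tested rows outside the family (0.578%), which include these 8. The highest were sqt-3 at 0.938, rol-6 at 0.936, sqt-2 at 0.935 and sqt-1 at 0.932, all genes whose mutants have twisted or squat bodies, and dpy-8 was an exception at −0.07. With raw library totals in place of TMM scaling the count was 7. These correlations describe 8 libraries that share their scaling, and the comparison was chosen after the values were seen. The median log2 fold change of the body shape collagens was 1.18, against −0.31 for the numbered family, and 12 of the 13 had a positive value. None of the 13 passed the adjusted threshold in the edgeR fit, while 9 were higher at an unadjusted p under 0.05 (background 2.98%). With the replicate block 3 passed (background 0.648%), DESeq2 called 1 (background 0.389%), and 3 passed without reduced replicate 1 (background 0.691%). Their median ran from 0.75 (without oxidized replicate 1) to 1.89 (without reduced replicate 1). The count at an unadjusted p under 0.05 in edgeR, in either direction, also depended on single libraries. It was 2 without oxidized replicate 1 (background 5.40%), 5 without reduced replicate 5 (6.39%) and 11 without reduced replicate 1 (7.82%). With the labels of replicate 5 exchanged it was 2 (background 3.33%), 0 passed the adjusted threshold, and the median log2 fold change was 0.89. At the negative end, 9 tested rows outside the family (0.4%) correlated with the component below −0.9. They included the left-out genes col-147 at −0.935 and col-146 at −0.915, but also non-coding rows and coding genes that are not collagens. The left-out genes col-80 and col-150 were at −0.871 and −0.819, while col-149 was at 0.253.

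Pairs of members were more often alike than pairs of rows at large. The median Pearson correlation was 0.204 over the 2080 pairs of tested members and −0.0076 over all pairs of tested rows, and 13.7% against 4.88% of pairs lay above 0.7. Below −0.7 the shares were 4.28% and 4.05%. The rows at large were not matched to the members for level. The 78 pairs of body shape collagens had a median of 0.746.

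Among the 66 pairs of the 12 highest members, 3 passed an adjusted exact permutation test on Pearson's r, and all 3 were positive. The closest was col-17 with col-73 (r = 0.997, rho = 1, n = 8; exact p = 2.48e-05, the smallest the 40320 pairings can give; adjusted 0.00164). Without the 2 libraries farthest from the median of col-17, r was 0.993. Next came col-93 with col-39 (r = 0.988, rho = 0.929, exact permutation adjusted p = 0.00327 and 0.0737), with r = 0.98 without the 2 farthest libraries. These genes lie on different chromosomes, III and II. The third was col-125 with col-167 (r = 0.953, rho = 0.833, exact permutation adjusted p = 0.0289 and 0.168), and without oxidized replicate 5 and reduced replicate 1 its r was 0.653. Of the 66 pairs, 8 had a negative r and none of these passed. The lowest was col-73 with col-93 at −0.599.

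Tested members that are neighbours on a chromosome mostly varied together. Within 5 kb of each other there were 26 neighbouring pairs of members, of which 12 had both genes tested, 8 had 1 and 6 had neither. All 12 tested pairs had a positive r, with a median of 0.835 and a range of 0.449 to 0.963. The median over all pairs of tested members was 0.204. Of these 12 pairs, 9 passed the exact permutation test on Pearson's r after adjustment over the 12 pairs, and 7 passed on Spearman's rho. With group means removed 6 passed on Pearson's r, with a median r of 0.787. The share that passes among all pairs of members, or among other neighbouring genes, was not computed. Several of the pairs share a gene, so they are not independent, and 11 of the 12 lie on the same strand. A run on chromosome X held the closest pair, col-168 with col-169 (r = 0.963, rho = 0.952, n = 8; exact permutation adjusted p = 0.00268 and 0.0134), and r was 0.879 without the 2 libraries farthest from the median. The pair col-167 with col-168 in the same run had r = 0.922 and rho = 0.81 (exact permutation adjusted p = 0.0147 and 0.0373), but rested on oxidized replicate 3 and reduced replicate 1, without which r was 0.395. On chromosome III, col-92 with col-93 had r = 0.941 and rho = 0.905 (exact permutation adjusted p = 0.00476 and 0.0137), and r was 0.791 without the 2 farthest libraries. On chromosome V, col-159 with col-160 had r = 0.899 and rho = 0.81 (exact permutation adjusted p = 0.0124 and 0.0373), with r = 0.831 without the 2 farthest libraries. Those genes overlap and share 21 exon bases on the same strand. Also on chromosome V, col-12 and col-13 had r = 0.863 and rho = 0.857 (exact permutation adjusted p = 0.014 and 0.0257), with r = 0.687 without the 2 farthest libraries. The least alike pairs were col-145 with col-10 at 0.547 and col-79 with col-39 at 0.449, neither of which passed.

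Chromosome IV held more members than any other chromosome, 41, of which 20 were tested, and 30.3% of the family's counts. Chromosome II held 27.2% of the counts in 23 members, of which 5 were tested. Chromosome V held 16.6% in 27 members, chromosome X 15.2% in 27, chromosome III 8.40% in 12 and chromosome I 2.21% in 21. Of the 21 members on chromosome I, 5 were tested.

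Some members overlap other genes, which limits what their counts say, because the strand setting of the counting is not given. On the other strand, 44 members share exon bases with another gene, and 15 of these were tested. The members without such a partner held 83.1% of the family's counts. An example is col-90, with 8579 counts, which shares 98 exon bases with let-754, an adenylate kinase gene, whose row held 224715 counts. Of these 44 members, 13 contain another row on the other strand, with at least 90% of that row's exon bases inside the member's. The row inside held more counts per exon base than the member in 8 of the 10 cases with counts. The gene col-128 had 35 counts while F12F6.17 within it had 2019, and col-137 had 886 while the 21-base row 21ur-12304 within it, shorter than the 50 nt reads, had 3715. Counts per exon base of the members were also taken relative to those of the rows inside them, pooled over the 13 cases. The pooled ratio was 2.36% to 3.86% in the oxidized libraries, against 4.37% to 7.85% in the reduced libraries. It rests on few rows and does not describe the single cases. The members col-137 and col-123 held 886 and 451 of the 1390 member counts. Of the 5966 counts in the rows inside, 21ur-12304 held 3715 and F12F6.17 held 2019. The part of the rows inside in the values of col-137 and col-128 was not tested, and closely similar members could also share reads. The part of the strand setting in the family's shares and ranks was not tested either.

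Genes that modify or control cuticle collagens were mostly too low to test. For prolyl hydroxylation and folding, 4 of 8 listed genes were tested and 0 were called. Their summed level was 1191 to 1925 CPM in the oxidized libraries, against 951 to 1753 CPM in the reduced libraries, most of it from crt-1, the calreticulin gene. The log2 fold change of crt-1 was 0.23 (SE 0.31), and that of pdi-2, a subunit of the hydroxylase, was 0.01 (SE 0.45). For the proteases that trim collagens 1 of 10 was tested, for cross-linking 2 of 7, and for hypodermal regulators 1 of 11, with 0 called in each list. The regulator tested was lin-42, a period-like gene of developmental timing, with a log2 fold change of 0.80 (SE 0.61). Basement membrane collagens, which are not cuticle proteins, had 3 of 4 genes tested and 0 called.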

How the data were processed

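Per the labels' protocols, stranded libraries were made from 100 ng of total RNA after removal of ribosomal RNA, with 15 PCR cycles, and read as 50 nt paired ends on 1 lane; the molecule label names polyA RNA instead. Tools per the submitters' processing notes were Bowtie2 2.2.1, TopHat2 2.0.13, Cuffdiff 2.1.1, Cufflinks and FastQC 0.11.3. The sources used here do not give the genome build, annotation, counter or strand setting. The authors deposited raw counts per row, and 2 of the table's columns match no sample and were not used. Row names were matched to Ensembl release 115 of WBcel235 (44933 of 45461 rows matched 1 gene), which also gave the coordinates. No sequences are shown.

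Members and gene lists were chosen with earlier results of these data known. Counts were filtered (filterByExpr), TMM-scaled and tested with edgeR 4.0.16 (robust glmQLFit with legacy = FALSE, glmQLFTest, R 4.3.3, no block), adjusted by Benjamini-Hochberg over 2315 rows at a threshold of 0.05. DESeq2 1.42.0, limma voom 3.58.1 and 17 alternatives in all were run. Log2 CPM used a prior count of 2. Permutation tests and correlations were computed with numpy 2.4.6 and pandas 2.3.3, with ranks from scipy 1.17.1. The labels say biological replicates, and p-values measure only the spread between these libraries. The tests were tested on simulated data.

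Members named are the 12 highest per kilobase, any called, the 4 smallest p per direction, the 4 most and 4 least variable, the 5 most and 2 least alike neighbour pairs, the 2 lowest tested members, members of the stage lists and col-128; not all of them are described. Other members (such as col-111, col-41, col-103, col-42 and col-98), the principal component, the top-12 pairs and the ratios were chosen after seeing the data. So were the counts at unadjusted p, by pair and by overlap, and the outside genes correlated with the component. Same-numbered libraries share a date and were taken as pairs. Their deviations from group means correlated at 0.06, −0.16, 0.13 and 0.30 over all tested rows, and at 0.34, −0.14, 0.22 and 0.69 over the tested members. Libraries of different numbers correlated at −0.457 to 0.408 over all tested rows and at −0.602 to 0.311 over the tested members. The value of 0.408, for oxidized replicate 1 with reduced replicate 2 of the same date, exceeded all same-number values over all tested rows.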

Additional observations from a re-analysis of the deposited data

Results flagged for a closer look

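Of 72 groups of 4 values checked, 6 held a library far from the other 3, by the gap to its nearest neighbour relative to the group's range (Dixon's criterion); chance gives about 1 in 20 groups, or 3.6. In the reduced group replicate 1 stood apart for col-17 (35050 CPM, against 7829 to 12235 in the others), for col-167 (9713, against 4836 to 5337) and for col-166 (5617, against 3259 to 3428). In the oxidized group replicate 1 stood apart for col-161 (5131 CPM, against 5725 to 5797) and for col-173 (290.4, against 72.02 to 99.98). Replicate 5 stood apart for col-89 (10.5 CPM, against 49.57 to 56.03 in the other oxidized libraries).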

How the results depend on the processing

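The count of members called was 0 and was 0 to 1 with 1 library left out, the 1 being col-17 without reduced replicate 1 (the cause was not tested). The difference in the family's share ran from −1.50 to 0.891 percentage points with 1 library left out and turned positive without oxidized replicate 2 (0.213) and reduced replicate 1 (0.891). It was −2.29 with the labels of replicate 5 exchanged and −1.90 without that replicate. The difference in members detected ran from 0.167 to 4.67, and that in the share of the 10 leading members from 1.28 to 5.28. The median pairwise correlation was 0.245 with raw library totals and 0.164 to 0.262 with 1 library left out. The median log2 fold change turned to 0.0061 over the 123 members with a count and no filter (more, lower rows). The number of neighbour pairs that passed was 6 to 10 over the alternatives. With the replicate block 0 members passed and 16 had an unadjusted p under 0.05; pairing gave a sign-flip p of 0.875 for the share and changed no other call in the family. Of the 151 members, 86 lay below the filter and were not tested, 28 of them with no count.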
